A study of Ophiorrhiza pumila with 6 samples.

Results

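The contigs described here encode the enzymes that make and break sucrose and trehalose in hairy roots of *Ophiorrhiza pumila*, a plant of the coffee family. They were chosen by the deposited description of each contig, which had to hold trehalose, trehalase, sucrose synthase, sucrose-phosphate (also with a space), invertase or fructofuranosidase. The rule took 65 of 59855 contigs of the *de novo* assembly, from 50 of its 47425 assembly genes, and used no expression value. By description, 11 contigs were sucrose synthases, 11 sucrose-phosphate synthases, 16 invertases, 12 invertase inhibitors, 10 trehalose-phosphate synthases, 3 trehalose-phosphate phosphatases and 2 trehalases. They were 204 to 5294 bases long, with a median of 1679 against 560 for all contigs. No contig sequence was used, so every name rests on the deposited description and best protein hit.

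The study silenced *OpERF1* or *OpERF2*, transcription factors of the AP2/ERF family, by RNA interference (RNAi), and compared the roots with control roots. RNA was taken from 3-week-old hairy roots of 6 lines with 1 library each: GUSi-9 and GUSi-10 carried a hairpin against the *Escherichia coli* GUS gene (the control), ERF1i-7 and ERF1i-19 a hairpin against *OpERF1*, and ERF2i-2 and ERF2i-3 a hairpin against *OpERF2*. All lines, controls included, were hairy roots induced by *Agrobacterium rhizogenes* (pRi15834) with the RNAi vector pGWB80 and selected on hygromycin and kanamycin. The study had picked the ERF1i and ERF2i lines for low RNA of their target by quantitative RT-PCR. Each line was 1 transformation event, so the spread between the 2 lines of a construct is that between separate transformants, and only 2 stood for each construct.

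The libraries held 11517610 to 13199946 expected counts. The *OpERF1* contig c15284_g1_i1 fell in the lines labelled ERF1i (log2 fold change −3.86, SE 0.66, adjusted p = 0.0312) and rose in those labelled ERF2i (2.14, SE 0.59, adjusted p = 0.0407). The *OpERF2* contig c17706_g2_i1 was at 15.2 and 8.33 FPKM in GUSi and at 9.69 and 28.0 in ERF1i. It was at 3.29 FPKM in the library labelled ERF2i-2 and at 14.8 in that labelled ERF2i-3. Its level in the library labelled ERF2i-3 thus lay between those of the GUSi lines, not below them as its label would have it. This contig held 76.5% and 74.8% of its assembly gene's molecules in GUSi and 63.1% and 71.4% in ERF1i. It held 100% in both libraries labelled ERF2i. By quantitative RT-PCR the paper reports strong suppression of *OpERF2* in its ERF2i lines, and ERF2i-2 and ERF2i-3 were picked for the lowest expression. The gap between these measures was not tested, and ERF2i below stands for the libraries so labelled. Counts without the library labelled ERF2i-3 are given below. The deposited annotation table numbers these 2 clones the other way round from the sample labels used here, which leaves the groups as they are. The summed level of 64 contigs listed as root markers was 860 to 1183 FPKM in all lines. They were drawn by description (Casparian strip, CASP-like, root hair defective, root cap or endodermis), and whether each is specific to roots was not tested. A *rolB* contig of the hairy root T-DNA was at 24.3 to 58.6 FPKM. Of 7 T-DNA contigs, 4, among them mannopine synthase, were at 0 to 0.20 FPKM in ERF1i and at 25.2 to 1233 FPKM in the other lines. The 73 contigs of green tissue markers summed to 142 to 150 FPKM in GUSi, 272 to 337 in ERF1i and 121 to 180 in ERF2i, with 31 to 34 of them at 0 in a construct. The part of these differences in the results below was not tested.

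Sucrose is the main sugar that plants move to their roots. Sucrose synthase splits it, in a reversible step, into fructose and UDP-glucose, while invertases cleave it into glucose and fructose in the cell wall, the vacuole or the cytosol. Sucrose-phosphate synthase makes the phosphorylated form of new sucrose. Trehalose-phosphate synthase and trehalose-phosphate phosphatase form trehalose from UDP-glucose and glucose phosphate by way of trehalose phosphate, a signal of sucrose status in plants, and trehalase cleaves trehalose into glucose. In *Arabidopsis*, several proteins of the trehalose-phosphate synthase family are thought to regulate rather than to catalyse, and some sucrose synthase genes are known to be induced by low oxygen.

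The RNA of these enzymes took a larger share of the library in ERF2i than elsewhere. The 65 contigs held 0.407% and 0.366% of the counts of the GUSi libraries. Their share was 0.488% and 0.568% for ERF1i, and 1.49% and 1.42% for ERF2i. Both ERF2i lines lay above all other lines. FPKM, fragments per kilobase of contig scaled to the mapped fragments of the library, is a level that can be compared between contigs of different length. Levels were uneven among the contigs: the mean over the 6 lines was under 10 FPKM in 38 contigs and above 100 FPKM in 6, with a median of 5.94 FPKM. In root RNA, more RNA per cell and a larger share of the cells that make it cannot be told apart.

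Of the 65 contigs, 54 passed the filter on low counts. The other 11, 6 of sucrose-phosphate synthase and 5 of invertase inhibitor, had at most 25 counts in all libraries together and were at most 597 bases long. A contig was called higher or lower when its adjusted p in edgeR's quasi-likelihood test was under 0.05. In ERF2i against GUSi, 23 contigs rose, 3 fell and 28 were not called, beside 13.2% of all tested contigs higher and 9.88% lower. The median log2 fold change of the 54 contigs was 0.57, and that of all tested contigs was −0.01. In ERF1i against GUSi, 4 rose and 1 fell, beside 2.65% and 1.40% of all tested contigs, with a median of 0.32. In ERF2i against ERF1i, 22 were higher and 5 lower, beside 10.6% and 9.01% (19.6% in either direction), with a median of 0.60. Contigs of 1 assembly gene can share reads. With counts summed over assembly genes, 15 of 39 tested genes rose and 2 fell in ERF2i against GUSi, beside 14.1% and 10.7% of all genes tested. The numbers for ERF1i against GUSi were 4 and 0 by edgeR, beside 2.66% and 1.50% (4.15% in either direction), and for ERF2i against ERF1i 14 and 5, beside 12.2% and 10.2%.

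These counts depended on single libraries, and the calls over all tested contigs moved with them; their shares higher and lower are given in parentheses. For ERF1i against GUSi, 14 contigs were higher and 2 lower without ERF1i-7 (4.97% and 3.32%). Only 1 was higher and none lower without GUSi-9 (0.195% and 0.177%), without ERF2i-2 (0.102% and 0.054%) or without ERF2i-3 (0.102% and 0.0508%). Without GUSi-10, 3 were higher and 0 lower (0.443% and 0.214%), and without ERF1i-19, 5 and 0 (2.70% and 1.07%). For ERF2i against GUSi, 16 were higher and 0 lower without ERF2i-2 (3.89% and 1.21%) and likewise without ERF2i-3 (5.23% and 2.77%). Without GUSi-9 they were 22 and 0 (6.35% and 3.88%), and without GUSi-10, 18 and 0 (6.38% and 3.43%). For ERF2i against ERF1i, 6 were higher and 1 lower without ERF2i-2 (2.30% and 0.605%), and 12 and 1 without ERF2i-3 (3.28% and 1.80%). They were 18 and 3 without GUSi-9 (8.16% and 6.31%) or GUSi-10 (8.16% and 6.29%), and 20 and 3 without ERF1i-19 (7.57% and 6.72%). Over 13 alternative settings, 15 of the 26 calls in ERF2i against GUSi were made in every one, all of them higher, as were 7 of 27 in ERF2i against ERF1i and 1 of 5 in ERF1i against GUSi. None of these calls changed direction in any of the 13.

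**Figure D1:**
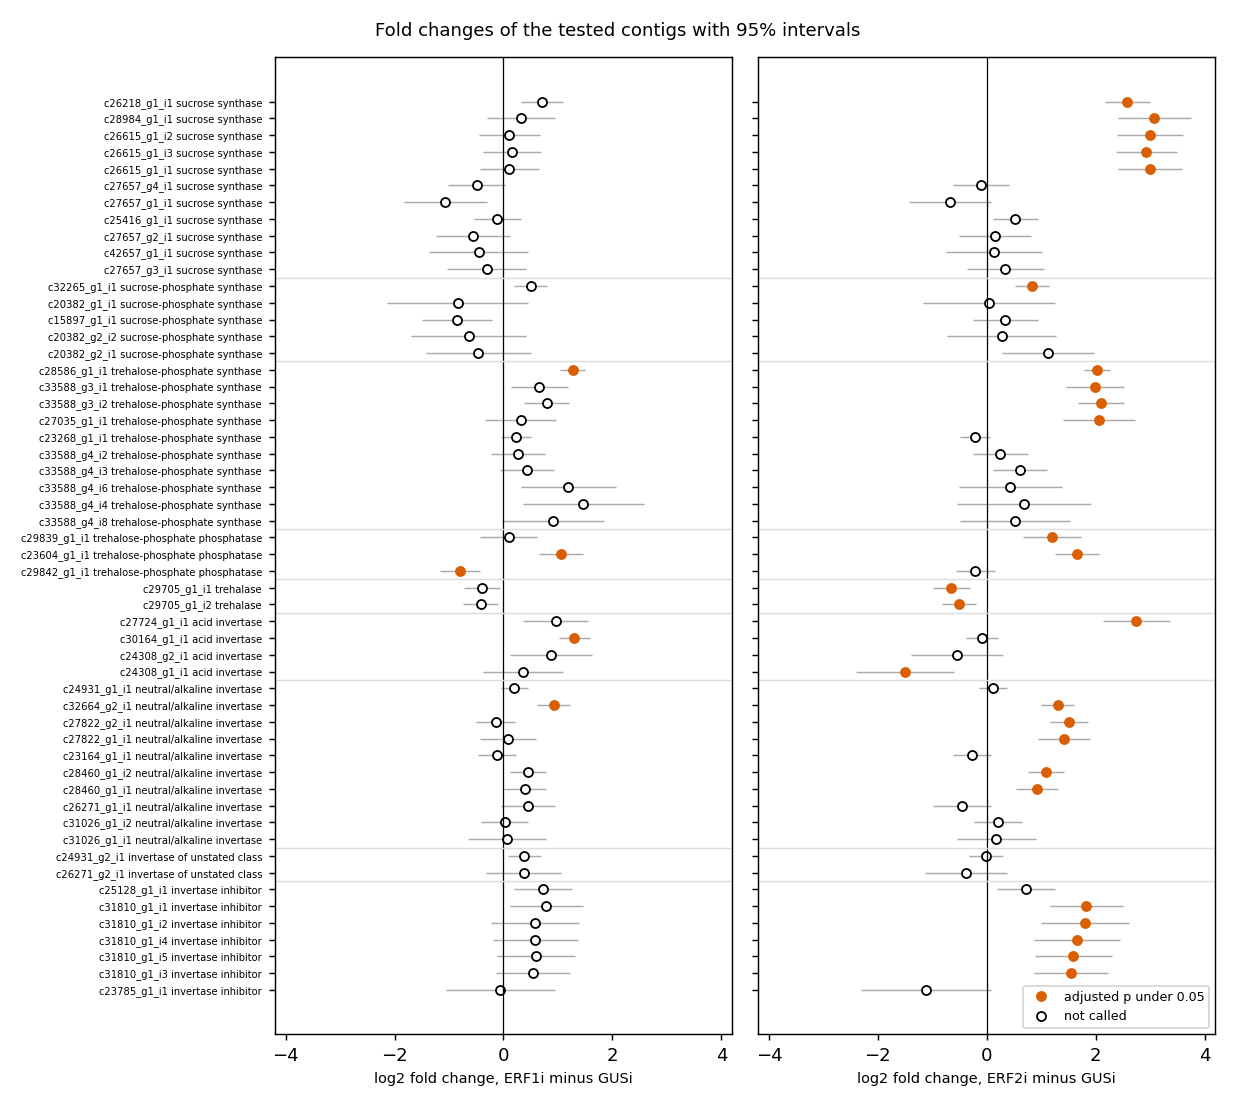
Log2 fold change (x axis) of each of the 54 tested contigs (y axis, grouped by role) in ERF1i minus GUSi (left) and ERF2i minus GUSi (right), which share the GUSi lines. Points are edgeR estimates, bars their 95% intervals, and filled points have an adjusted p under 0.05: 5 on the left and 26 on the right, with 4 sucrose synthase contigs (2.93 to 3.08) farthest to the right.

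Sucrose synthase RNA was the most abundant of these roles in every line, and its 5 abundant contigs rose in ERF2i, where their summed role level was 5.94 times that of GUSi. The contig c26218_g1_i1, whose best hit was a sucrose synthase of *Coffea canephora* over 806 residues at 97.8% similarity, was at 419.7 and 378 FPKM for GUSi, 555 and 688 for ERF1i, and 2074 and 2004 for ERF2i. The groups did not overlap, and both ERF2i lines were far above the rest. In ERF2i against GUSi its log2 fold change was 2.58 (95% interval 2.18 to 2.99, adjusted p = 0.000481), and in ERF1i against GUSi it was 0.71 (0.32 to 1.09, adjusted p = 0.0637). The latter passed the threshold with DESeq2 (adjusted p = 0.00126) and without ERF1i-7 (0.0186). By FPKM it ranked 143 and 193 among all contigs in GUSi and 9 in both ERF2i lines.

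The contig c28984_g1_i1 was at 288 and 195 FPKM in the GUSi lines, 220 and 355 in the ERF1i lines, and 1793 and 1678 in the ERF2i lines. The GUSi and ERF1i lines overlapped, and both ERF2i lines stood above them. It rose in ERF2i against GUSi by a log2 fold change of 3.08 (SE 0.28, adjusted p = 0.000934) and had 0.32 in ERF1i (adjusted p = 0.546). The 3 contigs of c26615_g1 gave log2 fold changes of 2.93 to 3.00 in ERF2i (adjusted p = 0.000712 to 0.000773) and 0.11 to 0.16 in ERF1i, where none was called. Their FPKM were nearly equal within each line, 91.4 to 95.4 in GUSi-9 for example, so they count as 1 measurement rather than 3. Summed, they reached 279 and 188 FPKM for GUSi, 198 and 288 for ERF1i, and 1614 and 1515 for ERF2i. The level of c28984_g1_i1 was 1.03 to 1.23 times this sum in each line. Their best hits covered 278 residues (c28984_g1_i1) and 535 residues (c26615_g1) of *Coffea* sucrose synthases, against the 806 of c26218_g1_i1; whether they are pieces of 1 transcript was not tested.

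The other 6 sucrose synthase contigs, described as 6-like or 7-like, were at 1.66 to 8.37 FPKM in all lines. None was called in either comparison with GUSi, and their log2 fold changes in ERF2i ran from −0.68 to 0.52. The contig c25416_g1_i1 (6-like) was at 4.54 and 4.76 FPKM in the GUSi lines, 4.08 and 4.13 in the ERF1i lines, and 5.64 and 5.79 in the ERF2i lines. It was higher in ERF2i than in ERF1i (0.64, adjusted p = 0.0489), a call lost without any 1 of the 6 libraries (adjusted p = 0.0768 to 0.188). In all, 5 of 11 sucrose synthase contigs rose in ERF2i against GUSi and 0 fell with edgeR (0 at an unadjusted p under 0.05, 0 with DESeq2 and 1 with limma). Of all tested contigs, 13.2% were higher and 9.88% lower. By assembly gene, 3 of 9 sucrose synthases rose and 0 fell, beside 14.1% and 10.7% of all genes tested. In ERF1i against GUSi 0 of 11 were called with edgeR, beside 2.65% of all tested contigs higher and 1.40% lower. There, 1 was higher and 1 lower at an unadjusted p under 0.05, 1 was higher with DESeq2 and 0 were called with limma.

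**Figure D2:**
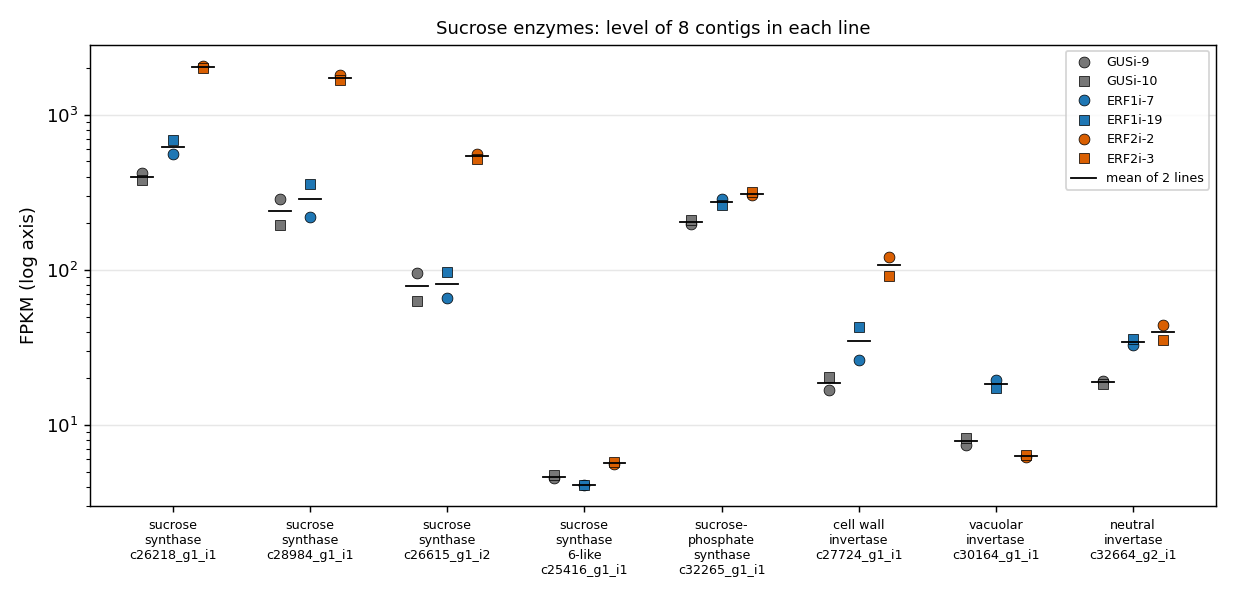
FPKM (log axis) of 8 sucrose enzyme contigs in each of the 6 lines, with the mean of the 2 lines of a construct as a black bar. The sucrose synthase c26218_g1_i1 was at 378 to 688 FPKM in the GUSi and ERF1i lines and at 2004 and 2074 in the ERF2i lines, while vacuolar invertase c30164_g1_i1 was highest in the ERF1i lines.

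Sucrose-phosphate synthase was dominated by c32265_g1_i1, at 199 and 210.3 FPKM for GUSi, 287 and 264 for ERF1i, and 305 and 317 for ERF2i. The 3 groups did not overlap, although the ERF1i and ERF2i lines lay close. It rose in ERF2i against GUSi (log2 fold change 0.83, SE 0.13, adjusted p = 0.00615). In ERF1i it had 0.50 (95% interval 0.19 to 0.81, adjusted p = 0.0869), which passed with DESeq2 (adjusted p = 0.0123), and ERF2i differed from ERF1i by 0.33 (adjusted p = 0.117). The 4 other tested contigs of this role were at 0.50 to 5.58 FPKM. None of them was called against GUSi, and c15897_g1_i1 and c20382_g2_i1 were higher in ERF2i than in ERF1i (1.19 and 1.59, adjusted p = 0.0266 and 0.0296). Both calls were lost without ERF1i-19, ERF2i-2 or ERF2i-3 (adjusted p = 0.0528 to 0.158) and with DESeq2 (0.0920 and 0.0779), and the former also without ERF1i-7 (0.0713).

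The acid invertases, which act in the cell wall and vacuole, did not move together. Of 4 contigs, 1 rose and 1 fell in ERF2i against GUSi (0 lower with DESeq2), beside 13.2% and 9.88% of all tested contigs. In ERF2i against ERF1i, 1 was higher and 3 lower, beside 10.6% and 9.01%. Cell wall invertase c27724_g1_i1, which cleaves sucrose outside the cell, was at 16.8 and 20.4 FPKM in the GUSi lines, 26.1 and 43.2 in the ERF1i lines, and 122 and 92.0 in the ERF2i lines. The lines of the 3 constructs did not overlap, with ERF2i highest. It rose in ERF2i against GUSi (log2 fold change 2.75, SE 0.26, adjusted p = 0.00103). Its value of 0.96 in ERF1i was not called (adjusted p = 0.0872), but passed without ERF1i-7 (1.27, adjusted p = 0.00884) and with DESeq2 (adjusted p = 0.0154). It was also higher in ERF2i than in ERF1i (1.79, adjusted p = 0.00525; 0.0598 without ERF2i-2).

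Vacuolar invertase c30164_g1_i1 was at 7.46 and 8.30 FPKM for GUSi, 19.5 and 17.4 for ERF1i, and 6.24 and 6.41 for ERF2i. Here the ERF1i lines were high and the ERF2i lines just below GUSi. It rose in ERF1i against GUSi (log2 fold change 1.30, SE 0.12, adjusted p = 0.00912), a call that ended without GUSi-9 or either ERF2i library (adjusted p = 0.0509 to 0.0564). In ERF2i against GUSi it had −0.09 (95% interval −0.39 to 0.21), and it was lower in ERF2i than in ERF1i (−1.39, adjusted p = 0.00123). Soluble acid invertase c24308_g1_i1, a contig of 10 to 57 counts a library, was at 3.78 and 4.24 FPKM in the GUSi lines, 6.18 and 3.65 in the ERF1i lines, and 1.22 and 1.20 in the ERF2i lines. It fell in ERF2i against GUSi (−1.50, SE 0.38, adjusted p = 0.0314), and the call was lost when any GUSi or ERF2i library was left out (adjusted p = 0.0862 to 0.166) and with DESeq2 (0.0537). The vacuolar type contig c24308_g2_i1 was lower in ERF2i than in ERF1i (−1.42, adjusted p = 0.0306), not so without ERF2i-2 (0.201) or ERF2i-3 (0.114).

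Of 10 neutral or alkaline invertase contigs, which encode enzymes of the cytosol and of organelles, 5 rose in ERF2i against GUSi and 1 of these also rose in ERF1i. Of all tested contigs, 13.2% rose in ERF2i and 2.65% in ERF1i. The contig c32664_g2_i1 was at 19.4 and 18.5 FPKM for GUSi, 32.8 and 35.8 for ERF1i, and 44.2 and 35.4 for ERF2i. Both silenced groups were above GUSi and overlapped each other. Its log2 fold change was 0.93 in ERF1i (SE 0.13, adjusted p = 0.0197) and 1.30 in ERF2i (SE 0.13, adjusted p = 0.00116). The ERF1i call ended when any GUSi or ERF2i library was left out (adjusted p = 0.0605 to 0.0946).

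The contig c27822_g2_i1 was at 10.1 and 11.5 FPKM in the GUSi lines, 9.01 and 9.60 in the ERF1i lines, and 29.4 and 22.9 in the ERF2i lines. Only the ERF2i lines were high among these 6, with 1.50 against GUSi (SE 0.15, adjusted p = 0.00112) and 1.65 against ERF1i (adjusted p = 0.00132). The short contig c27822_g1_i1 of 431 bases and the contigs c28460_g1_i1 and c28460_g1_i2 also rose in ERF2i (1.43, 0.92 and 1.08). The call for c27822_g1_i1 ended without ERF2i-2 (adjusted p = 0.0527), and that for c28460_g1_i1 without GUSi-10, ERF2i-2 or ERF2i-3 (0.0593 to 0.0839). The contig with the highest level of this role over the 6 lines, c24931_g1_i1, was at 31.0 and 34.7 FPKM in GUSi, 35.4 and 36.5 in ERF1i, and 30.4 in both ERF2i lines. Its log2 fold change in ERF2i, which has the TMM scaling that FPKM lacks, was 0.11 (95% interval −0.14 to 0.37) and was not called. The contig c26271_g1_i1 was lower in ERF2i than in ERF1i (−0.90, adjusted p = 0.0324; not called without any 1 library other than ERF1i-7, 0.0554 to 0.158). The 2 contigs described only as of the beta-fructofuranosidase family, c24931_g2_i1 and c26271_g2_i1, share assembly components with these neutral invertases. They had −0.02 and −0.39 in ERF2i against GUSi and were not called.

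Invertase inhibitors are small proteins that bind acid invertases. Of the 7 tested contigs, 5 rose and 0 fell with edgeR in ERF2i against GUSi (1 lower with limma), beside 13.2% and 9.88% of all tested contigs. All 5 belonged to the assembly gene c31810_g1, so they count as 1 gene. Its contig c31810_g1_i1 was at 7.11 and 4.93 FPKM for GUSi, 7.15 and 12.7 for ERF1i, and 17.1 and 19.4 for ERF2i. The ERF2i lines were above all others, and ERF1i-19 stood between. The log2 fold change in ERF2i was 1.83 (SE 0.28, adjusted p = 0.00574; 0.0512 without ERF2i-3), and the 5 contigs ran from 1.55 to 1.83. The calls of the other 4 ended without GUSi-10, ERF2i-2 or ERF2i-3 (adjusted p = 0.0704 to 0.0928). In ERF1i it had 0.79 (adjusted p = 0.176), which passed without ERF1i-7 (1.14, adjusted p = 0.0176). The contigs are 3575 to 4202 bases long while their hit to an inhibitor of potato covered 169 residues. The most abundant inhibitor contig, c25128_g1_i1, was at 59.3 and 41.8 FPKM in the GUSi lines, 64.7 and 94.97 in the ERF1i lines, and 76.6 and 65.9 in the ERF2i lines. It had 0.72 in ERF2i (adjusted p = 0.0573), which passed with DESeq2 (0.0380) and without ERF1i-7 or ERF1i-19 (0.0195 and 0.0179), and 0.73 in ERF1i (adjusted p = 0.125; 0.0272 without ERF1i-7).

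Of 10 trehalose-phosphate synthase contigs, 4 rose in ERF2i against GUSi, and 1 of these rose in ERF1i as well. Of all tested contigs, 13.2% rose in ERF2i and 2.65% in ERF1i. The contig c28586_g1_i1 was at 17.0 FPKM in both GUSi lines, 38.8 and 39.3 FPKM in ERF1i, and 61.5 and 56.6 in ERF2i. The lines of a construct lay close together and the constructs stood apart. Its log2 fold change was 1.27 in ERF1i (SE 0.10, adjusted p = 0.00788) and 2.02 in ERF2i (SE 0.10, adjusted p = 0.000336), the lowest p of the 54 tested contigs in that comparison. The direct comparison of ERF2i with ERF1i gave 0.76 (adjusted p = 0.00398; 0.0514 without ERF2i-2). It was the only contig of the 65 called in ERF1i against GUSi in all 13 alternatives.

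The contig c33588_g3_i2 (9-like by best hit) was at 15.3 and 11.1 FPKM for GUSi, 20.6 and 23.2 for ERF1i, and 53.4 and 43.1 for ERF2i. The groups did not overlap. It rose in ERF2i by 2.10 (SE 0.18, adjusted p = 0.000772), while 0.80 in ERF1i was not called (adjusted p = 0.0565) but passed with DESeq2 (0.0116) and without ERF1i-7 (0.0414). Its sister contig c33588_g3_i1 rose by 1.99 in ERF2i and can share its reads. The contig c27035_g1_i1 was at 13.8 and 9.91 FPKM in the GUSi lines, 12.2 and 15.8 in the ERF1i lines, and 53.2 and 31.0 in the ERF2i lines. The GUSi and ERF1i lines overlapped, and the ERF2i lines were higher but 0.76 apart on the log2(FPKM + 1) scale, the widest gap between the ERF2i lines among the 54 tested contigs. It rose by 2.06 (SE 0.28, adjusted p = 0.00363).

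The contig c23268_g1_i1 (7-like by best hit) was at 22.9 and 24.5 FPKM for GUSi, 23.9 and 29.1 for ERF1i, and 17.4 and 17.3 for ERF2i. Its ERF2i lines were the lowest. It had −0.22 in ERF2i against GUSi (95% interval −0.50 to 0.07), which was called, at −0.45, with no scaling beyond the total count (adjusted p = 0.0308), and was lower in ERF2i than in ERF1i (−0.45, adjusted p = 0.0420). The latter call was lost without any 1 library other than ERF1i-7 (adjusted p = 0.0687 to 0.205). The 5 contigs of c33588_g4 matched a synthase over 155 residues at 67.1% similarity, stood at 0.34 to 6.57 FPKM, and none was called in the 3 comparisons.

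The 3 trehalose-phosphate phosphatases, which release trehalose from its phosphate, differed from each other. The most abundant, c29839_g1_i1, was at 44.7 and 52.3 FPKM in the GUSi lines, 61.2 and 37.4 in the ERF1i lines, and 95.03 and 95.3 in the ERF2i lines. Only ERF2i stood apart. It rose in ERF2i against GUSi (1.20, SE 0.22, adjusted p = 0.0111), not so without GUSi-9, ERF2i-2 or ERF2i-3 (0.0708 to 0.0862). Its description says phosphatase and its best hit is named a putative synthase of castor bean, over 371 residues. The contig c23604_g1_i1 was at 5.20 and 7.13 FPKM in GUSi, 13.1 and 11.4 in ERF1i, and 16.6 in both ERF2i lines. The groups did not overlap. It rose in ERF1i (1.06, SE 0.17, adjusted p = 0.0280) and in ERF2i (1.66, SE 0.17, adjusted p = 0.00130), and the ERF1i call was lost without GUSi-9, ERF2i-2 or ERF2i-3 (0.0944 to 0.100). The contig c29842_g1_i1 (J-like) was at 10.5 and 10.7 FPKM for GUSi, 6.06 and 5.62 for ERF1i, and 6.83 and 8.85 for ERF2i. It was the only contig of the 65 that fell in ERF1i against GUSi (−0.79, SE 0.15, adjusted p = 0.0420). That call held without ERF1i-7 and was lost without any other library (adjusted p = 0.0818 to 0.165) and with counts summed over its assembly gene (−0.74, adjusted p = 0.0620).

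Both of the 2 trehalase contigs, which belong to 1 assembly gene, fell in ERF2i against GUSi (1 with DESeq2, 2 with limma). Of all tested contigs, 9.88% were lower there. In ERF1i against GUSi 0 were called with edgeR and 2 were lower at an unadjusted p under 0.05. The contig c29705_g1_i1 was at 11.0 and 11.1 FPKM in the GUSi lines, 9.00 and 6.99 in the ERF1i lines, and 6.01 and 5.98 in the ERF2i lines. The other contig of the same gene, c29705_g1_i2, was at 11.1 and 9.89 for GUSi, 7.95 and 6.97 for ERF1i, and 5.82 and 6.74 for ERF2i. For both contigs the 3 groups did not overlap, with GUSi highest. The log2 fold changes in ERF2i against GUSi were −0.65 (SE 0.14, adjusted p = 0.0196) and −0.51 (SE 0.13, adjusted p = 0.0359), and with the counts of the gene summed −0.50 (adjusted p = 0.0153). Both calls were lost when any GUSi or ERF2i library was left out (adjusted p = 0.0789 to 0.219), and that of c29705_g1_i2 also with DESeq2 (0.0917). In ERF1i they had −0.40 and −0.42 (adjusted p = 0.171 and 0.135; 0.0355 for the former without ERF1i-7), and ERF2i differed from ERF1i by −0.26 and −0.09 (not called).

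**Figure D3:**
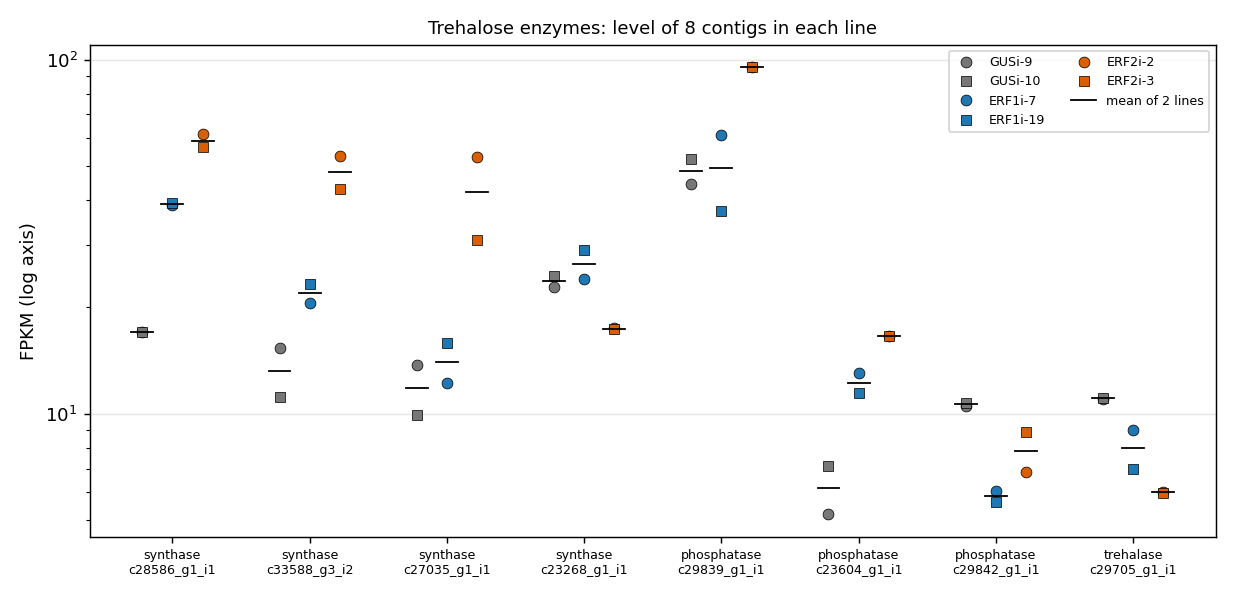
FPKM (log axis) of 8 trehalose enzyme contigs in each of the 6 lines, with the mean of the 2 lines of a construct as a black bar. The synthase c28586_g1_i1 rose from 17.0 FPKM in GUSi to about 39 in ERF1i and 56.6 and 61.5 in ERF2i, while trehalase c29705_g1_i1 was lowest in the ERF2i lines.

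Synthases were then set beside phosphatases and hydrolases. In ERF2i against GUSi, 10 of 26 tested synthase contigs rose and 0 fell, with a median log2 fold change of 0.57, while 8 of 21 phosphatase and hydrolase contigs rose and 3 fell, with a median of 0.11, beside 13.2% of all tested contigs higher and 9.88% lower. The number of synthases lower was also 0 at an unadjusted p under 0.05 and with DESeq2, and 1 with limma. By assembly gene, 7 of 18 synthases rose and 0 fell, and 7 of 18 phosphatases and hydrolases rose and 2 fell, so that as many genes rose in both classes, beside 14.1% and 10.7% of all genes tested. In ERF1i against GUSi, 1 synthase contig rose and 0 fell with edgeR (2 lower at an unadjusted p under 0.05, 0 with DESeq2 or limma), against 3 and 1 of the phosphatases and hydrolases, beside 2.65% and 1.40% of all tested contigs. In ERF2i against ERF1i, 12 synthase contigs were higher and 1 lower, against 7 and 4, beside 10.6% and 9.01%. The difference between the classes was not tested.

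In summed FPKM, sucrose synthase set the balance between the classes. Synthases summed to 5.05 and 3.84 times the phosphatases and hydrolases in the GUSi lines, 4.26 and 5.32 times in the ERF1i lines, and 13.0 and 13.6 times in the ERF2i lines. Both ERF2i lines were above the other 4. With sucrose synthase left out, the ratio was 1.18 and 1.08 for GUSi, 1.28 and 1.25 for ERF1i, and 1.23 and 1.27 for ERF2i. The ERF2i lines then lay above both GUSi lines and overlapped the ERF1i lines. Sucrose synthase made up 59.99% and 54.0% of the summed FPKM in the GUSi lines, 53.4% and 59.7% in the ERF1i lines, and 82.0% and 82.3% in the ERF2i lines. Its ratio to all invertases was 5.65 and 4.06 for GUSi, 4.21 and 5.12 for ERF1i, and 16.3 and 18.1 for ERF2i. All sums of sucrose synthase FPKM given here take in both c28984_g1_i1 and c26615_g1. If these are pieces of the same transcript, which was not tested, the sums count it repeatedly. Within trehalose metabolism, phosphatase to trehalase was 2.73 and 3.34 in the GUSi lines, 4.74 and 3.90 in the ERF1i lines, and 10.0 and 9.49 in the ERF2i lines, with the 3 constructs apart. Synthase to phosphatase was 1.64 and 1.19 for GUSi, 1.61 and 2.71 for ERF1i, and 2.16 and 1.69 for ERF2i. Both ERF2i lines lay above both GUSi lines here, and the ERF1i lines overlapped each of the other constructs. These ratios are descriptions with no test.

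**Figure D4:**
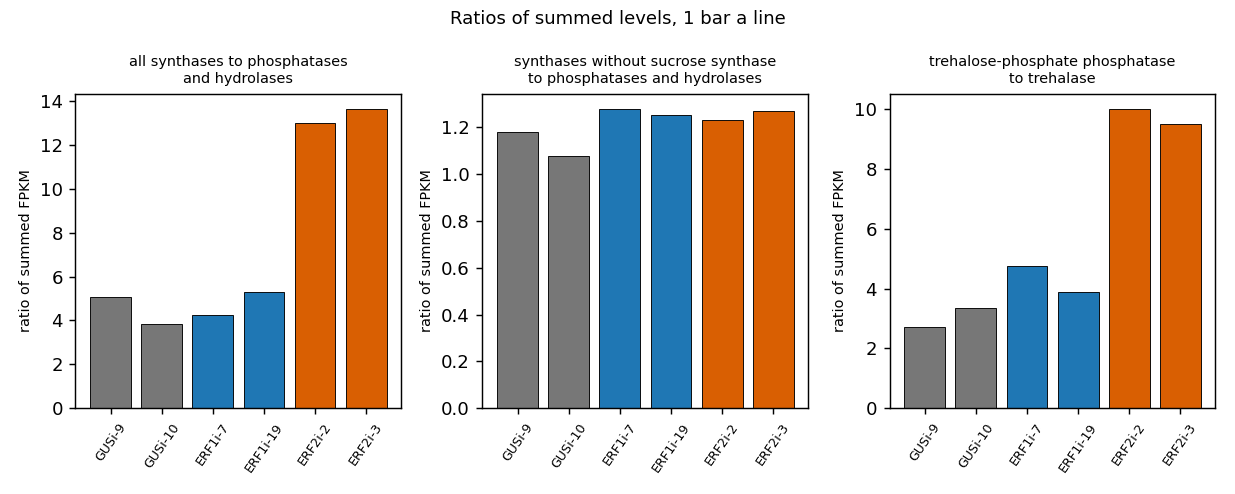
Ratio of summed FPKM (y axis, from 0) in each of the 6 lines, for all synthases to phosphatases and hydrolases, for the same without sucrose synthase, and for trehalose-phosphate phosphatase to trehalase. The left ratio is 3.84 to 5.32 in GUSi and ERF1i and 13.0 to 13.6 in ERF2i, and the middle one 1.08 to 1.28 in all lines.

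By role, the summed sucrose synthase level was 903 ± 156 FPKM in GUSi, 1172 ± 255 in ERF1i and 5365 ± 199 in ERF2i (SD, n = 2 lines). Acid invertases summed to 34.8 ± 3.9, 65.5 ± 5.4 and 117 ± 20.4 FPKM, and trehalose-phosphate synthases to 91.1 ± 10.9, 138 ± 12.9 and 229.9 ± 36.5. Neutral and alkaline invertases were at 109.5 ± 3.5, 131 ± 8.1 and 161 ± 14.1, and sucrose-phosphate synthases at 218 ± 10.3, 283 ± 19.1 and 325 ± 7.9. For all of these the mean of ERF1i lay between GUSi and ERF2i. Trehalase summed to 21.5 ± 0.78, 15.5 ± 2.1 and 12.3 ± 0.63 FPKM, in the reverse order. Phosphatases were at 65.3 ± 6.9 in GUSi and 67.4 ± 18.3 in ERF1i, which overlapped, and 119.6 ± 1.6 in ERF2i. The lines of 1 construct differed by a median of 1.16-fold in GUSi, 1.26-fold in ERF1i and 1.09-fold in ERF2i on the FPKM + 1 scale over the 54 contigs.

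**Figure D5:**
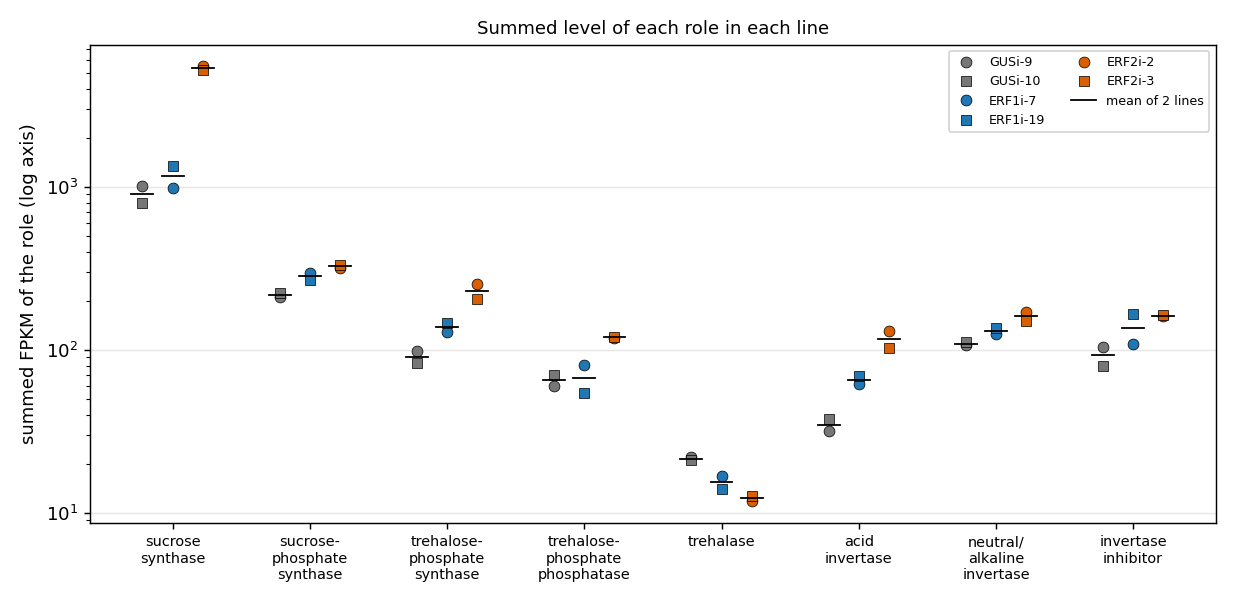
Summed FPKM (log axis) of the contigs of 8 roles in each of the 6 lines, with the mean of the 2 lines of a construct as a black bar. Sucrose synthase lies highest in every line and reaches 5225 and 5505 FPKM in ERF2i, and trehalase is the lowest role, at 11.8 and 12.7 FPKM in ERF2i.

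Other genes of the same pathways, from lists drawn by description, were counted in ERF2i against GUSi, beside 13.2% of all tested contigs higher and 9.88% lower. A share near these is no result about a list. The list of sucrose phosphatase, the enzyme that completes sucrose synthesis, held 4 contigs. Of these, 0 were called with edgeR (1 lower at an unadjusted p under 0.05 and with limma, 0 with DESeq2). Contigs c26344_g1_i1, c26344_g1_i2 and c26344_g1_i3 of this list, from the same assembly gene, are described only as a sucrose-phosphatase-related family protein. Their best hits were uncharacterized proteins at 54.6 to 58.0% similarity. The list of hexokinase and fructokinase, which phosphorylate the sugars that cleavage releases, held 15 contigs once phosphofructokinases were set aside, of which 5 rose and 0 fell with edgeR (1 lower at an unadjusted p under 0.05, 0 with DESeq2, 2 with limma). UDP-glucose pyrophosphorylase, which interconverts UDP-glucose and glucose phosphate, had 1 contig higher (c32505_g1_i1, 0.48, adjusted p = 0.0269) and 1 lower (c24795_g1_i1, −0.83, adjusted p = 0.00622) of 4. With DESeq2 or limma 0 were higher and 1 was lower. In the list of SnRK1, a kinase of energy status that trehalose phosphate is known to inhibit, 3 of 14 rose and 1 fell (0 lower with DESeq2, 2 with limma). The regulatory subunit contig c1901_g1_i1 (gamma) rose by 1.36 (adjusted p = 0.00287). The sucrose transport list had 1 higher and 1 lower of 12 (0 higher with DESeq2 or limma). Its lower contig, c241_g1_i2 (−0.40, adjusted p = 0.0468), is described as a bidirectional sugar transporter, sweet2a-like, which does not name sucrose. Starch synthesis had 0 of 24 called with edgeR (0 at an unadjusted p under 0.05 and with DESeq2, 3 lower with limma). The starch breakdown list had 1 higher and 3 lower of 21 (1 lower with DESeq2, 6 with limma). Its higher contig, c18674_g1_i1 (1.78, adjusted p = 0.000782), is described as inactive beta-amylase 9. Among the lower, c23396_g1_i1 (−1.02, adjusted p = 0.0106) is described as an alpha-amylase inhibitor family protein. Neither description is of an active starch-degrading enzyme. The raffinose family had 3 higher and 1 lower of 20. With DESeq2 1 was higher and 0 lower, and with limma 0 were higher and 2 lower. In ERF1i against GUSi, 0 to 3 contigs of each of these lists were called higher and 0 or 1 lower, beside 2.65% and 1.40% of all tested contigs. The 11 phosphofructokinase contigs that the kinase list also held, of an enzyme of glycolysis, had 9 higher (7 with DESeq2, 5 with limma), and the lowest p was that of c30065_g2_i3 (3.28, adjusted p = 0.000374). Counts in all these lists are of contigs, not genes. Contigs of the same assembly gene can share reads, such as c30065_g2_i1, c30065_g2_i2 and c30065_g2_i3, or c33044_g1_i2 and c33044_g1_i3 of SnRK1.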

How the data were processed

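The authors prepared strand-specific libraries, aligned clean read pairs to a *de novo* assembly with Bowtie2 2.0 and estimated levels with RSEM (tools per the submitters' processing notes, which give no RSEM version). For every contig the deposited library tables give the expected count, the FPKM and the percentage of the assembly gene's molecules assigned to it, all estimated by the authors with RSEM. The deposited annotation table repeats the FPKM, and its columns equalled the library tables within 0.006 in 59855 of 59855 contigs, with the ERF2i clone numbers crossed. Whether counting used strand is not given in the sources used here.

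Expected counts were rounded and filtered with filterByExpr by group (minimum count 10, minimum total 15), which left 33315 contigs. All 6 libraries, in 3 groups, were fitted with edgeR 4.0.16 in R 4.3.3 (TMM scaling, quasi-likelihood test, 3 residual degrees of freedom, two-sided), and p-values were adjusted by Benjamini-Hochberg over all tested contigs. The biological coefficient of variation was 14.7%. The test was tested on simulated data. DESeq2 1.42.0, limma 3.58.1 on log2(FPKM + 1) and other scalings, filters and libraries were alternatives. Contigs were named by a rule: the 10 lowest p of each comparison among called contigs, the most abundant contig and that with the lowest p of each role, and the trehalases. Other contigs were named after their values had been seen. The members and lists were chosen with earlier results of these data known. Summed FPKM and other values were computed with pandas 2.3.3 and drawn with matplotlib 3.10.9. The labels name replicates by clone only, and p-values measure the spread between separate transformants. Intervals do not cover differences between reads of closely related genes, which were not separated.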

Additional observations from a re-analysis of the deposited data

How the results depend on the processing

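The direction of every called contig was the same in all 13 alternatives that test single contigs. In ERF1i against GUSi the contigs higher numbered 8 with DESeq2, 1 with only the 4 libraries of the 2 groups, 2 with limma and 1 to 14 with a library left out, beside 4. The contigs lower numbered 0 with no low-count filter, with only the 4 libraries, with limma, with counts summed over assembly genes and with a 1 log2 unit minimum change, and 0 to 2 with a library left out, beside 1. In ERF2i against GUSi the contigs higher numbered 15 of 39 with counts summed over assembly genes and 16 to 26 with a library left out, beside 23. The contigs lower numbered 1 with DESeq2, 5 with no scaling beyond the total count, 5 with limma, 1 with a 1 log2 unit minimum change and 0 to 3 with a library left out, beside 3. In ERF2i against ERF1i the contigs higher numbered 14 of 39 by assembly gene and 6 to 20 with a library left out, beside 22. The contigs lower numbered 3 with DESeq2, 2 with no low-count filter, 2 with only the 4 libraries, 3 with a 1 log2 unit minimum change and 1 to 6 with a library left out, beside 5. A library left out leaves 1 line of its construct, which the fit takes to vary like the others. The shares of all contigs called higher and lower moved with the setting too. In ERF1i against GUSi they were 1.98% and 0.966% with DESeq2, 0.0706% and 0.0338% with only the 4 libraries, and 0.792% and 0.546% with limma. With no low-count filter they were 0.606% and 0.268%. In ERF2i against GUSi they were 5.29% and 3.75% with DESeq2. In ERF2i against ERF1i they were 4.24% and 3.67% with DESeq2 and 4.63% and 3.36% with no low-count filter. With no scaling beyond the total count the median log2 fold change of all contigs in ERF2i against GUSi was −0.24, and over all tested contigs 2932 were higher and 7331 lower in place of 4393 and 3293; with limma they were 2754 and 6407. In ERF2i against ERF1i they were 2494 and 5313 without scaling and 2192 and 4236 with limma, in place of 3536 and 3001. In ERF1i against GUSi they were 716 and 622 without scaling in place of 884 and 468. With the 1 log2 unit minimum change, the shares higher and lower were 1.75% and 0.762% in ERF1i against GUSi. They were 7.14% and 3.89% in ERF2i against GUSi and 5.30% and 4.11% in ERF2i against ERF1i. With only the 4 libraries the latter comparison had 9.04% and 7.14%. By CPM with TMM factors in place of FPKM, the summed level of ERF2i relative to GUSi was 6.74 for sucrose synthase (5.94 by FPKM), 1.78 for sucrose-phosphate synthase (1.50), 2.20 for invertases (1.67), 2.68 for invertase inhibitors (1.76), 2.10 for trehalose-phosphate phosphatases (1.83) and 0.668 for trehalase (0.570). For ERF1i relative to GUSi it was 1.41 for sucrose-phosphate synthase (1.30) and 1.47 for invertases (1.33). The cause of these shifts was not tested. Counting by assembly gene tested fewer units, and leaving out a library kept fewer lines, but their part in the shifts was not tested either. No paired analysis was possible because the constructs share no clone number. Contigs of 10 to 57 counts a library, such as the soluble acid invertase, limit what small differences can be seen at this depth.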
